A study of Mus musculus with 8 samples.

Results

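The cells described here, called Lum-high cells, were sorted aortic cells in which lumican (Lum), a small leucine-rich proteoglycan of the extracellular matrix, made up at least 0.3% of the unique molecular identifiers (UMIs, counted transcript molecules) of the cell, while the cartilage collagen Col2a1 stayed under 0.1%. They were taken from the knockout libraries at 1 and 2 months of high-fat diet. There were 9 such cells among 1302 at 1 month (0.691%, exact binomial 95% interval 0.317 to 1.31%) and 186 among 2253 at 2 months (8.26%, 7.15 to 9.47%), in all 195 of the 3555 cells of the 2 libraries and of the 13056 cells of the 8 libraries of the study. Each was set against the Lum-low cells of its own library, in which Lum was under 0.05% of UMIs: 1255 cells at 1 month and 1877 at 2 months. Another 38 and 163 cells lay between these limits, and 27 cells at 2 months were Lum-high with Col2a1 at or over 0.1%.

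The study compared single-cell expression in smooth muscle cells of the ascending aorta between 2 mouse genotypes. All animals lacked functional Apoe (Apoe-/-), which makes mice prone to raised cholesterol and atherosclerosis; the knockout animals (genotype label TGFBetaRiSMC-Apoe, here KO) also carried a smooth-muscle-cell-specific deletion of the TGF-beta receptor gene Tgfbr2. Each genotype had 4 libraries, a normal diet (ND) and high-fat diet (HFD) for 1, 2 and 4 months (1M, 2M, 4M). Digested aortas were sorted for GFP-positive cells before 10x Chromium capture; the Cre driver, the number of mice per library and their age are not given in the sources used here. Apoe and Tgfbr2 themselves had been taken out of the tables, so the deletion could not be checked. The results rest on KO 2M HFD and KO 1M HFD. With 1 library per genotype and diet, and cells chosen by a measured gene, no difference was tested: intervals are exact Poisson or binomial 95% intervals and cover counting error alone.

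A contractile aortic smooth muscle cell makes actin and myosin isoforms that generate force, with little matrix turnover. In atheroma-prone and aneurysmal aortas, such cells can lose these proteins and take on matrix-producing, inflammatory or cartilage-like expression, a switch called phenotypic modulation, and TGF-beta signalling is a known regulator of smooth muscle differentiation. Lumican and decorin are proteoglycans that bind collagen fibrils, Sca1 (the product of Ly6a) is a surface protein of progenitor-like and adventitial cells, elastin forms the elastic lamellae, VCAM1 is an adhesion receptor for leukocytes, and MMP3 (stromelysin-1) degrades matrix proteins.

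Lum took a median 0.35% of the UMIs of the KO 1M HFD Lum-high cells (range 0.306 to 0.46%) and 0.787% in those of KO 2M HFD (range 0.3 to 5.14%). These values chose the cells and are a description. Lum-high cells had a median of 7517 UMIs at 1 month, against 8856 in Lum-low cells, and 8515.5 at 2 months, against 7431. Levels below are UMIs summed over the cells of a class per 1,000,000 UMIs (CPM), and ratios are Lum-high over Lum-low cells. Because the tables list a gene in a library only where at least about 5% of its cells held a UMI, some genes are listed at 0 in a whole library; at 1 month the 9 cells held 76268 UMIs in all, against 1713164 UMIs in the 186 cells at 2 months, so most scarcer genes could be counted only at 2 months.

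Dcn, the gene of decorin and a neighbour of Lum on mouse chromosome 10, stood at 15090 CPM in the Lum-high cells of KO 2M HFD and at 91.3 CPM in Lum-low cells, 165.3-fold apart. At 1 month it stood at 4773 CPM in Lum-high cells and 31.77 CPM in Lum-low cells. All 9 Lum-high cells of the 1-month library held Dcn, with 5 to 86 UMIs each. Ly6a was at 1120 CPM in Lum-high cells of KO 2M HFD, against 12.59 CPM in Lum-low cells; at 1 month it rested on 14 UMIs, 183.6 CPM in Lum-high and 4.377 CPM in Lum-low cells. Vcam1 was 2350 CPM in Lum-high and 351.9 CPM in Lum-low cells at 2 months, and 812.9 against 124.1 CPM at 1 month. These 3 markers were thus higher in Lum-high cells of both libraries, although at 1 month none of them reached the count needed for the tallies below.

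Of the other 2 markers, Eln could be compared between the libraries and Mmp3 could not. Eln, which encodes elastin, stood at 9008 CPM in the Lum-high cells of KO 1M HFD against 232.2 CPM in Lum-low cells (38.79-fold), but at 684.7 against 335.3 CPM at 2 months (2.042-fold). That 2-month excess depended on the Lum limit: with Lum at 0.5% or more the log2 ratio of Eln was -0.26. Mmp3 stood at 1346 CPM in the Lum-high cells of KO 2M HFD and 26.9 CPM in Lum-low cells, a log2 ratio of 5.65; in KO 1M HFD it was not listed, and since the 9 Lum-high cells are 0.691% of that library, a gene carried by them alone would fall short of the listing minimum, so its level there was not measured. When every cell was thinned to 2905 UMIs, Mmp3 was seen in 28.0% of Lum-high and 3.41% of Lum-low cells of KO 2M HFD, Ly6a in 59.1% and 2.56%, Vcam1 in 83.3% and 27.3%, and Eln in 33.9% and 30.7%.

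The promoter of Mmp3 is shown because the gene is a marker with a known AP-1-responsive promoter and lies on the side of the matrix genes that were higher, and that of Myl9, the regulatory light chain of smooth muscle myosin, because it lies on the contractile side. Capitals mark the AP-1 motif in Mmp3 (searched as TGANTCA, which reads alike on both strands) and the CArG box, the binding motif of serum response factor, in Myl9. Both windows run from 250 bases before to 50 bases after the RefSeq start on build GRCm38.p6, on the plus strand, 5′ to 3′: chr9:7445572-7445871 for Mmp3 and chr2:156775214-156775513 for Myl9.
Mmp3: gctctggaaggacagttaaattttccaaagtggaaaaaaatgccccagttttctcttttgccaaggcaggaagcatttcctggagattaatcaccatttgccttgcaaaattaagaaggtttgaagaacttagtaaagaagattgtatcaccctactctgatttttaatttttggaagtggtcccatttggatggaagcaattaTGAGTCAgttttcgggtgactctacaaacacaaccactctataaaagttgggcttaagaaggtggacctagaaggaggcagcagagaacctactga
Myl9: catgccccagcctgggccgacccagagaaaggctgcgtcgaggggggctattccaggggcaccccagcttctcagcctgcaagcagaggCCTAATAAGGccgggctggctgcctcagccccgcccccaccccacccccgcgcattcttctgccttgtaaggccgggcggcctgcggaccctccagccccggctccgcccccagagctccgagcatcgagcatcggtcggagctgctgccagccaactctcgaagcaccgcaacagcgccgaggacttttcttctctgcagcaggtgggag
The AP-1 match lay 46 bases before the Mmp3 start and the CArG match 161 bases before the Myl9 start. In windows of this length, AP-1 matched 2565 of 32851 promoters (7.81%) and the CArG box 535 (1.63%). Of the genes at least 2-fold higher in Lum-high cells of KO 2M HFD, 273 of 380 had a window, and 30 of their 355 promoters held AP-1 (8.45%), against 4.73% of the 9115 promoters of all genes counted. AP-1 was in 5.19% of the 828 promoters of the genes at least 2-fold lower. On the contractile list it was in 2 of 22 promoters (9.09%), those of Cald1 and Mylk. Of the 22 contractile genes, 18 had a window, and Myl9 was the only one with a CArG match. The CArG box was searched only as CCWWWWWWGG, with W for A or T. Looser forms and sites outside the window were not searched. It matched 3.02% of the promoters of the genes at least 2-fold lower, 0.563% of those higher and 1.42% of all genes counted. A match is a description of these letters.

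The contractile programme was lower in Lum-high cells of both libraries. Acta2, which encodes smooth muscle actin, stood at 3212 CPM in Lum-high cells of KO 1M HFD against 24310 CPM in Lum-low cells, and at 6567 against 24780 CPM at 2 months. Of the 22 contractile genes, 20 could be counted at 1 month and all 20 were at least 2-fold lower, where 22.3% of the 1226 genes counted were that much lower. At 2 months 21 of 22 were, where 8.9% of 9246 genes were. Myocd, the coactivator that drives contractile gene transcription, was the exception, at 22.18 CPM in Lum-high and 42.87 CPM in Lum-low cells. The list's median log2 ratio was -2.76 at 1 month and -1.80 at 2 months, beside medians over all genes counted of -0.31 and -0.13. At 1 month a gene was counted almost only where Lum-low cells held many of its UMIs, which limits that tally and its share of all genes. With no filter on low counts the 1-month median over all genes was 0.04.

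Myh11, the smooth muscle myosin heavy chain, was 419.6 CPM in Lum-high and 2425 CPM in Lum-low cells at 1 month, and 451.8 and 2025 CPM at 2 months. Myl9 stood at 1377 against 9529 CPM and at 2438 against 10700 CPM. Des, the intermediate filament desmin, had no UMI in the 9 Lum-high cells, at least 4.871-fold lower by a floor of 3 counts over the class, and was 30.35 against 199.9 CPM at 2 months. Thinned to a common depth, 43.5% of Lum-high and 97.3% of Lum-low cells of KO 2M HFD showed Myh11. Beyond the list, Sost, the gene of the WNT antagonist sclerostin, was 222.9 CPM in Lum-high and 1339 CPM in Lum-low cells at 1 month, and 113.8 and 1209 CPM at 2 months, 10.62-fold apart at 2 months.

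**Figure D1:**
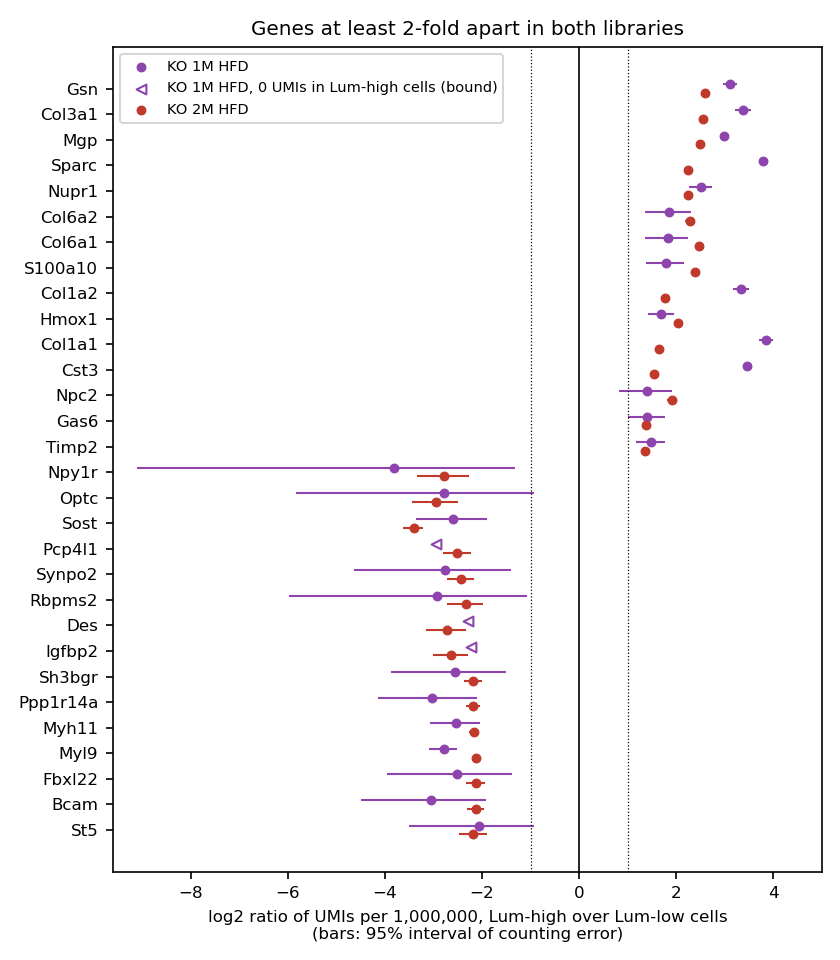
Log2 ratio of UMIs per 1,000,000, Lum-high over Lum-low cells, for the genes named at least 2-fold higher (upper rows) or lower (lower rows) in both libraries, with 95% intervals of counting error; open triangles are bounds where the 9 Lum-high cells of KO 1M HFD had 0 UMIs, and dotted lines mark 2-fold. The intervals at 1 month are wide for the genes that were lower, and for Npy1r (1 UMI) the estimate of -3.80 runs from -9.11 to -1.32.

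Of 1222 genes counted in both libraries, 21 were at least 2-fold higher in Lum-high cells of both (1.72%), 119 at least 2-fold lower in both (9.74%) and 5 past 2-fold in opposite directions (0.409%). With the median log2 ratio of all genes set to 0, these were 32 higher and 94 lower. With no filter on low counts they were 195 higher and 229 lower. The 9 cells held 76268 UMIs at 1 month, against 11424309 in Lum-low cells. A gene therefore passes the filter there almost only with many UMIs in Lum-low cells. Genes high in the 9 cells but scarcer in Lum-low cells could be left out. Among these were Dcn (364 and 363 UMIs), Ly6a (14 and 50) and Vcam1 (62 and 1418). The split of 21 and 119 thus depends on the filter. Gsn, which encodes the actin-severing protein gelsolin, stood at 5572 CPM in Lum-high and 642.8 CPM in Lum-low cells at 1 month, and at 5392 and 900.2 CPM at 2 months. Mgp, the matrix Gla protein that inhibits calcification, was 13140 against 1655 CPM and 17570 against 3120 CPM. Sparc, a collagen-binding matricellular protein, was 13310 against 961.5 CPM and 5962 against 1267 CPM.

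The fibrillar collagens took part in both libraries, more so at 1 month. Col1a1, of type I collagen, was 5402 CPM in Lum-high and 374.9 CPM in Lum-low cells of KO 1M HFD (14.41-fold) and 764.1 and 243.1 CPM in KO 2M HFD (3.143-fold). Col3a1, of type III collagen, was 4655 against 447.7 CPM and 1501 against 258 CPM. Of the collagen list, 5 of 6 genes counted at 1 month and 11 of 14 at 2 months were at least 2-fold higher, with median log2 ratios of 2.59 and 1.99; 8.24% and 4.11% of all genes counted were that much higher. Col18a1, a basement membrane collagen, was at least 2-fold lower in both libraries, at 299.4 CPM in Lum-high and 693 CPM in Lum-low cells of KO 2M HFD.

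Cst3 (the protease inhibitor cystatin C), Timp2 (a metalloproteinase inhibitor), Nupr1 (a stress-induced nuclear protein) and Hmox1 (haem oxygenase) were also among the 15 named from the 21. Cst3 reached 22380 CPM in Lum-high cells against 2048 CPM in Lum-low cells at 1 month, and 6756 against 2310 CPM at 2 months. Hmox1 was 1482 against 459 CPM and 705.1 against 171 CPM. The rest of the 15 were Col1a2, Col6a1, Col6a2, S100a10, Npc2 and Gas6.

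The 9 cells of KO 1M HFD and the 186 of KO 2M HFD carried different further genes. Mfap4, a microfibril-associated protein of elastic fibres, was 6320 CPM in Lum-high and 126.3 CPM in Lum-low cells at 1 month but 144.2 and 133.4 CPM at 2 months. All 5 elastic fibre genes counted at 1 month were at least 2-fold higher (Eln, Mfap4, Mfap5, Loxl1 and Ltbp4; median log2 ratio 2.91), against 6 of 15 at 2 months (Eln, Fbln5, Fbln1, Fbln2, Efemp1 and Lox; median 0.69). Rbp4, the plasma retinol carrier, was 3370 CPM in Lum-high and 184.2 CPM in Lum-low cells at 1 month, and 84.64 and 105.2 CPM at 2 months. Serping1, the C1 inhibitor, and the noncoding RNA Meg3 had the same pattern. Among the genes past 2-fold at 2 months and within 1.5-fold of equal at 1 month, Ecm1 was 1829 CPM in Lum-high and 744.3 CPM in Lum-low cells of KO 2M HFD, and Ckb, creatine kinase B, 260.3 and 949 CPM.

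Fibronectin (Fn1), an adhesive matrix protein, was 144.2 CPM in Lum-high and 348.9 CPM in Lum-low cells of KO 1M HFD, on 11 UMIs, and 4157 and 488.2 CPM in KO 2M HFD. With Lum at 0.2% or more its 1-month log2 ratio was 0.26 in place of -1.27. Each of the 9 cells held 0 to 3 Fn1 UMIs, beside 43 to 203 of Mgp and 14 to 252 of Sparc. Their Eln UMIs ran from 3 to 283 with a median of 27, so elastin was present in all of them and abundant in some. Mmp3, Spp1, Ly6c1, Prg4, C3, Ibsp, Cytl1 and Ptn, which are described for the 2-month cells below, were not listed in the 1-month library, so their levels in the 9 cells were not measured.

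**Figure D2:**
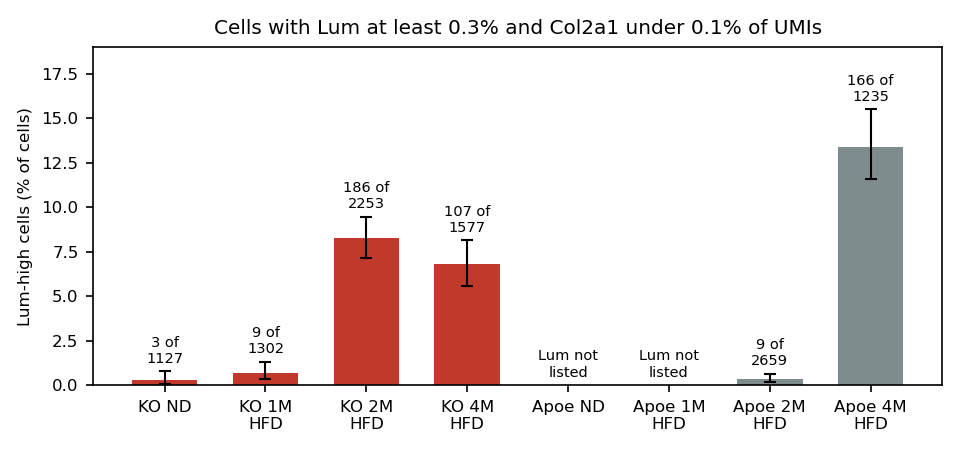
Share of cells that were Lum-high with Col2a1 under 0.1% in each library, with exact binomial 95% intervals. KO 2M HFD and the 2 libraries at 4 months hold nearly all such cells, and Lum was not listed in Apoe ND and Apoe 1M HFD, which have no bar.

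Fibroblast markers stood beside these results. In KO 1M HFD, the 9 Lum-high cells held a median of 8 of the 10 fibroblast markers listed there (range 3 to 9), against a median of 2 in Lum-low cells, and 8 of the 9 held at least 5, against 57 of 1255 (4.54%). Pi16, a marker of adventitial fibroblasts, was seen in 8 of the 9 and in 143 of the 1255 Lum-low cells; Dpt (dermatopontin) in 8 and in 46; Serpinf1 in 9 and in 134. The summed fibroblast list stood at 11000 CPM in Lum-high and 940.4 CPM in Lum-low cells. Their contractile list summed to 4934 to 16460 CPM per cell, and Pdgfra, the fibroblast receptor gene, had a UMI in 1 of the 9. The cells came from a GFP-positive sort. Given these markers, the 9 cells are named by their Lum level and not as modulated smooth muscle; the part of fibroblast transcripts in the 1-month result was not tested.

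In KO 2M HFD, Lum-high cells held a median of 4 of 8 listed fibroblast markers (range 0 to 8) and Lum-low cells a median of 2, and 56 of 186 (30.1%) held at least 5, against 16 of 1877 (0.852%). Dpt, Pi16, Clec3b, Serpinf1, Cygb and Dpep1 were not listed at 2 months, that is, seen in under about 5% of all cells of that library. The 186 cells are 8.26% of that library, so the levels of these genes in them were not measured. The 8 markers include Ly6c1 and lack Dpt, Pi16 and Serpinf1. They are thus another set than the 10 at 1 month, and the marker counts of the 2 libraries are not comparable. The list summed to 6354 CPM in Lum-high and 1178 CPM in Lum-low cells, of which Gsn alone gave 5392 and 900.2 CPM. Its part in the 2-month result was not tested either.

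Markers of the other cell types an aortic digest can hold were looked up in the same classes. The macrophage list summed to 52.45 CPM in Lum-high and 474.7 CPM in Lum-low cells at 1 month, with Lyz2, C1qa and C1qb at 0 in the 9 cells, and at 2 months Cd74, the only marker listed, was 28.02 and 30.34 CPM. Endothelial markers summed to 104.9 against 159.6 CPM at 1 month, with Pecam1 and Fabp4 at 0 in the 9 cells, and to 232.3 against 205.8 CPM at 2 months. The pericyte list was 944 against 419.6 CPM and 409.2 against 468.3 CPM, the Schwann list 13.11 against 15.76 CPM and 65.38 against 24.36 CPM, and the adipocyte list 104.9 against 30.64 CPM and 57.2 against 38.67 CPM. At 1 month the sums in the 9 cells rested on few UMIs: 4 macrophage, 8 endothelial, 72 pericyte, 1 Schwann and 8 adipocyte. No lymphocyte or mesothelial marker was listed in either library. The chondrocyte list summed to 354 against 46.22 CPM and 295.4 against 125.9 CPM. At 1 month the 27 UMIs of the 9 cells were all Sox9, as Cnmd, the other marker listed, was at 0. The 2-month sum includes Col2a1, which the rule capped in Lum-high cells. The osteoblast list, with no marker listed at 1 month, summed to 370.1 against 18.23 CPM at 2 months, nearly all of it Ibsp.

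In the 186 cells of KO 2M HFD alone, a comparison added after the data were seen, 380 of 9246 genes counted were at least 2-fold higher (4.11%) and 823 at least 2-fold lower (8.9%); with the median log2 ratio set to 0 the split was 483 and 631. Ly6c1 and Cd34, surface proteins of progenitor-like and adventitial cells, stood beside Ly6a. Ly6c1 was 444.2 CPM in Lum-high and 3.853 CPM in Lum-low cells, and Cd34 157.6 and 2.202 CPM; Ly6c1 has a near-identical copy, Ly6c2, and the labels do not say how reads shared between them were counted. Of the list of progenitor and Sca1 genes, 8 of 13 were at least 2-fold higher (Ly6a, Ly6c1, Ly6e, Cd44, Cd34, Alcam, Vcam1 and Pdgfra) and 1 lower (Mcam), with a median log2 ratio of 1.49. At 1 month 3 of the list could be counted, Cd200 higher, Mcam lower and a median of -0.76, beside 1.64 with no filter on low counts.

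Several matricellular and adhesive matrix genes were higher at 2 months. For this and the lists that follow, 4.11% of all genes counted at 2 months were at least 2-fold higher and 8.9% lower. At 1 month these shares were 8.24% and 22.3%. Prg4, the lubricating proteoglycan lubricin, had the largest ratio of the genes named here, 440.1 CPM in Lum-high and 2.064 CPM in Lum-low cells. Spp1 (osteopontin) was 6018 against 112.9 CPM, and Comp, a cartilage matrix protein, 161.7 against 16.72 CPM. Of the matricellular list, 13 of 21 genes were at least 2-fold higher at 2 months and 2 lower (Sparcl1 and Ccn3), median 1.55, against 3 higher (Sparc, Ccn2 and Mgp) and 5 lower (Fn1, Postn, Sparcl1, Ccn3 and Itih4) of 9 at 1 month, median -1.27, which turned to 0.13 with Lum at 0.2% or more and to 1.93 with no filter on low counts.

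Among the small leucine-rich proteoglycans, leaving out Lum itself, Dcn, Fmod, Omd and Chad were at least 2-fold higher and Ogn lower among 11 counted at 2 months, median 0.90. Fmod (fibromodulin), which binds collagen, was 97.48 CPM in Lum-high and 6.812 CPM in Lum-low cells, while Bgn (biglycan) was 6425 and 3325 CPM, short of 2-fold. At 1 month Bgn and Prelp of 3 counted were higher, median 1.74.

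Matrix-degrading enzymes and their inhibitors were higher together. Mmp2, a gelatinase, was 353.7 CPM in Lum-high and 18.99 CPM in Lum-low cells of KO 2M HFD, and the collagen-degrading protease Ctsk 221.8 and 12.04 CPM. Timp1, an inhibitor of metalloproteinases, was 2485 against 119.3 CPM. Of this list 10 of 17 were at least 2-fold higher and none lower at 2 months (median 1.15), against 4 higher and 1 lower of 7 at 1 month (median 1.49).

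Genes of cartilage and bone were also higher with Col2a1 itself kept under 0.1% by the rule. Of 12 counted at 2 months, 9 were at least 2-fold higher and none lower (median 3.36), while none could be counted at 1 month. Ibsp, bone sialoprotein, was 366 CPM in Lum-high and 12.59 CPM in Lum-low cells, Tnfrsf11b (osteoprotegerin, a decoy receptor that restrains osteoclasts) 580.2 and 34.82 CPM, and Cytl1, a chondrocyte-secreted protein, 661.3 and 38.53 CPM. Sox9, the cartilage master regulator, was 169.3 and 50.71 CPM. The Ibsp level came from cells near the Lum limit: it was 983.6 CPM in the 60 cells with Lum at 0.3 to 0.6% and 9.209 CPM, on 10 UMIs, in the 126 cells with Lum at 0.6% or more, beside 8.128 CPM in cells under 0.05%.

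Complement and cytokine genes followed. C3, the central complement component, was 100.4 CPM in Lum-high and 3.234 CPM in Lum-low cells, and 4 of 7 complement genes were at least 2-fold higher at 2 months (C3, C4b, C1ra and Clu; median 1.13), as were 2 of 3 at 1 month (median 2.17, but -1.15 with Lum at 0.2% or more). Cxcl1, a neutrophil chemokine, was 492.1 against 84.49 CPM. Of the cytokine and acute phase list 7 of 13 were at least 2-fold higher at 2 months (median 1.09), and at 1 month Mt1 was higher and Cxcl12 lower of 3 counted (median -0.01). Of the interferon list 6 of 22 were higher at 2 months (median 0.64) and H2-K1 and H2-D1 of 6 at 1 month (median 0.48).

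A list of 14 genes used for modulated smooth muscle had 13 members at least 2-fold higher and none lower in Lum-high cells of KO 2M HFD (median 3.18): Fn1, Timp1, Tnfrsf11b, Vcam1, Ly6a, Lgals3, Spp1, Col8a1, Cxcl12, C3, Mgp, Comp and Ibsp. Klf4, a transcription factor of the list, was 633.9 CPM in Lum-high and 529.9 CPM in Lum-low cells. In KO 1M HFD 5 could be counted, Klf4 and Mgp higher and Fn1, Lgals3 and Cxcl12 lower, median -1.27; that median changed sign under several other settings, to 2.76 with no filter on low counts. The list was drawn up with results of these data known and is no independent evidence of a direction.

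**Figure D3:**
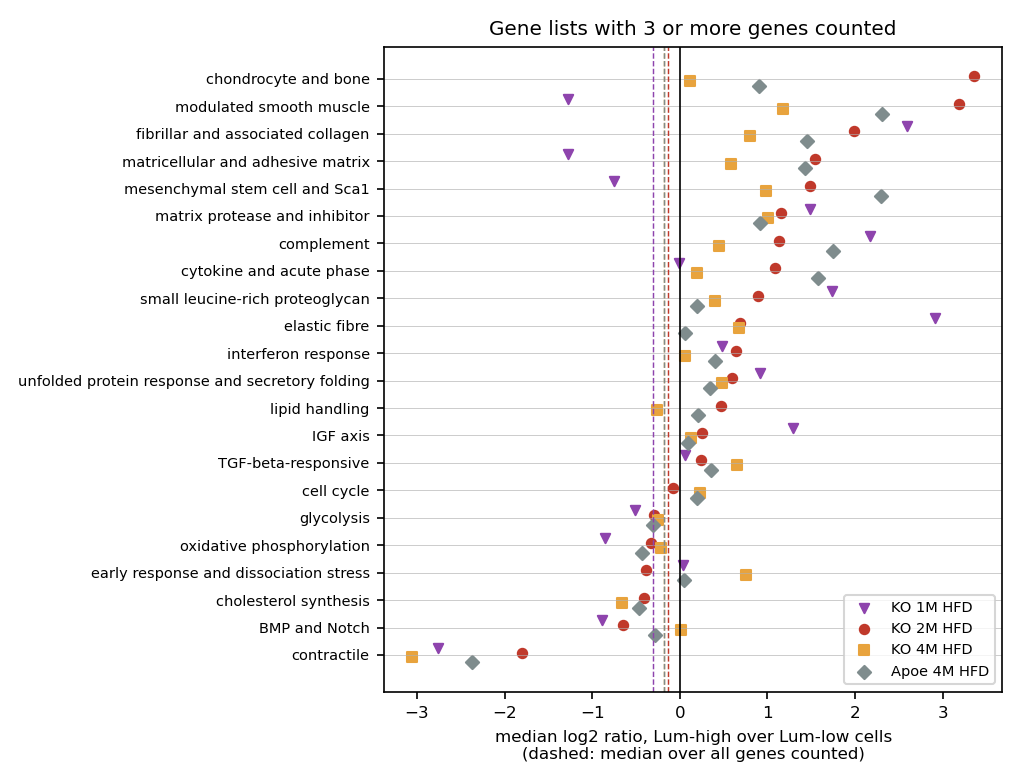
Median log2 ratio, Lum-high over Lum-low cells, of each gene list with at least 3 genes counted, in KO 1M HFD, KO 2M HFD, KO 4M HFD and Apoe 4M HFD; dashed lines are the medians over all genes counted (-0.31, -0.13, -0.18 and -0.18). The contractile list lies lowest in all 4 libraries (-2.76, -1.80, -3.05 and -2.37), and the chondrocyte and bone list highest at 2 months (3.36).

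Of 23 TGF-beta-responsive genes counted at 2 months, 7 were at least 2-fold higher and 2 lower (Actn1 and Tgfb1i1), median 0.25; at 1 month 5 of 15 were higher and 3 lower, median 0.07. Among BMP and Notch genes none was at least 2-fold higher and 5 of 14 were lower at 2 months (Id2, Id4, Notch3, Hey1 and Hey2; median -0.64), as were 3 of 7 at 1 month (Id2, Smad7 and Hes1; median -0.89). Over all genes counted, 8.9% were that much lower at 2 months and 22.3% at 1 month. Id4, an inhibitor of DNA-binding transcription factors, was 122.6 CPM in Lum-high and 454.4 CPM in Lum-low cells of KO 2M HFD.

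Early response genes, which tissue digestion can induce, had 1 of 22 lower (Ier2) and none higher at 2 months, median -0.38, and 4 of 18 higher (Fosb, Nr4a1, Zfp36 and Klf4) and 2 lower (Atf3 and Hspb1) at 1 month, median 0.04. In the folding and secretory list 6 of 23 were higher at 2 months (median 0.60; Pcolce, the procollagen C-proteinase enhancer, at 476.3 CPM in Lum-high and 39.29 CPM in Lum-low cells) and 4 of 10 at 1 month (median 0.91; Hspa5, Hsp90b1, Pdia3 and Serpinh1). Oxidative phosphorylation genes had none of 17 past 2-fold at 2 months (median -0.33) and 4 of 13 lower at 1 month (median -0.86). At 1 month 22.3% of all genes counted were at least 2-fold lower, and 8.9% at 2 months. Glycolysis had 1 of 13 lower (median -0.29) and 2 of 8 lower (median -0.51), and cholesterol synthesis 1 of 10 lower at 2 months (Fdps, median -0.41), with none counted at 1 month.

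Of the lipid handling list 4 of 11 were higher at 2 months (Abcg1, Lrp1, Npc2 and Lgmn; median 0.47) and Npc2 of 2 at 1 month (median 0.71). The IGF axis had Igf2r and Igfbp5 higher and Igfbp2 lower of 8 at 2 months (median 0.25), and Igfbp4, Igfbp7 and Htra1 higher and Igf1r and Igfbp2 lower of 5 at 1 month (median 1.30). No cell cycle gene was past 2-fold among 5 counted at 2 months (median -0.08) or the 1 counted at 1 month (log2 ratio 0.10).

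The 186 Lum-high cells of KO 2M HFD varied widely among themselves. Summed over the 22 contractile genes, they had a median of 6576 CPM per cell (interquartile range 3575 to 26670, full range 1812 to 93810), against 63690 CPM in Lum-low cells. Of the 186, 126 lay under 19660 CPM, the level that 2.5% of Lum-low cells lie below, and 6 were at or above the Lum-low median. Contractile expression thus ran from near absent to the level of the Lum-low cells.

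**Figure D4:**
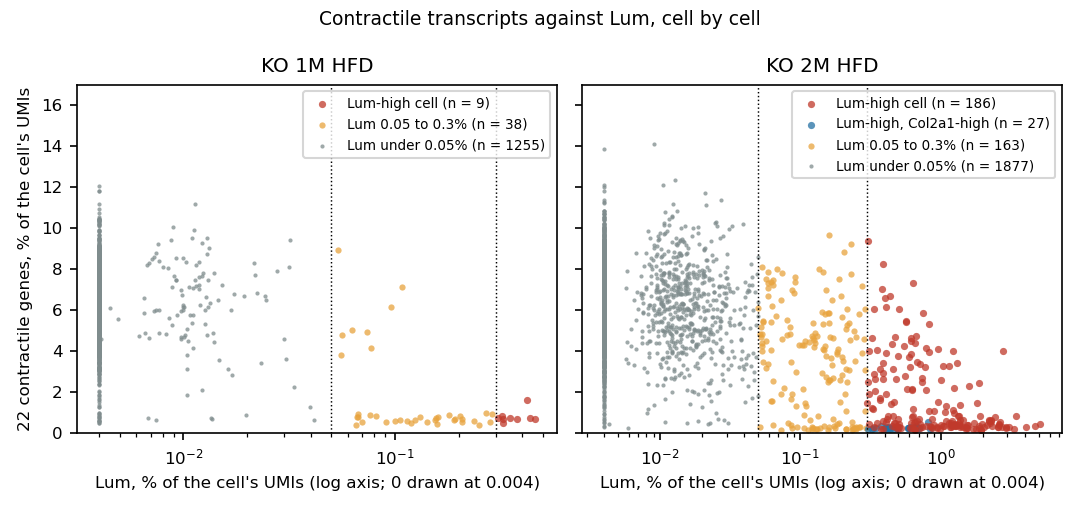
Share of each cell's UMIs from the 22 contractile genes (vertical axis, %) against its Lum share (horizontal axis, %, log scale, cells with no Lum UMI drawn at the left), in KO 1M HFD and KO 2M HFD; each point is a cell, coloured by class, and dotted lines mark Lum shares of 0.05 and 0.3%. At 2 months the Lum-high cells spread from near 0 to the level of Lum-low cells, while at 1 month all 9 lie near the bottom, together with most of the 38 cells between the limits.

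Within these 186 cells, Dcn ran against the contractile sum (Spearman rho -0.654), as did Fn1 (-0.56), Ly6a (-0.474) and Lum (-0.441), while the values were -0.27 for Spp1, -0.084 for Vcam1 and 0.205 for Eln. The points share 1 library and each cell's own depth, and the values are descriptions over cells. Ly6a and Ly6c1 went together (rho 0.761), and Mmp3 and Vcam1 did not (0.009). In the 93 cells with the lower contractile sums Dcn was 24300 CPM, against 6277 CPM in the 93 with the higher; Mmp3 was 2136 against 590.4 CPM, Ly6a 1576 against 682.9 CPM and Ibsp 736.8 against 11.42 CPM. Vcam1 was 2350 CPM in both sets, and Spp1 was 5495 against 6517 CPM. Eln was 800.0 against 574.4 CPM, so its summed level and its rank correlation differ in direction, and so do those of Spp1.

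A few cells carried most transcripts of several of these genes. The 19 cells with most UMIs of a gene held 84.0% of the Eln UMIs of the 186, 79.2% of Spp1, 87.9% of Prg4, 95.1% of Cytl1, 79.7% of Mmp3 and 71.5% of Timp1, against 27.5% of Lum and 35.7% of Mgp. Ibsp was seen in 15 of the 186, so its class level describes those cells, and Mmp3 in 71. The median Lum-high cell had no Eln UMI, and 48.4% of Lum-high cells held one, against 55.8% of Lum-low cells.

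Across classes of Lum share in KO 2M HFD, levels went on changing on both sides of 0.3%. From under 0.05% through 0.05 to 0.1, 0.1 to 0.2, 0.2 to 0.3, 0.3 to 0.6 and at least 0.6% (1876, 52, 56, 26, 60 and 126 cells with Col2a1 under 0.1%), Dcn was 82.04, 704.4, 1481, 3195, 6373 and 20120 CPM. The contractile sum over the same classes was 62970, 48470, 41440, 41290, 25290 and 12380 CPM. Spp1 did not follow the order, at 86.93, 1487, 741.4, 7579, 9957 and 3742 CPM, and Eln was highest at 0.3 to 0.6% (1395 CPM) and 274.4 CPM in the top class.

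In KO 1M HFD the contractile sum was already low in the classes under 0.3%. It was 61760 CPM in the 1255 cells under 0.05%, then 25890, 8136 and 7066 CPM in 16, 14 and 8 cells, and 9493 CPM in the 9 Lum-high cells; Eln was 232.2, 6652, 8696, 6336 and 9008 CPM. The 38 cells between the limits held a median of 8.5 fibroblast markers, and 33 of them at least 5. Just inside the limit (0.3 to 0.35%) there were 5 cells at 1 month and 14 at 2 months, and just outside it (0.25 to 0.3%) 3 and 9 cells. At 2 months the 14 inside had 2992 CPM of Dcn and 27300 CPM of the contractile sum, and the 9 outside 2045 and 31630 CPM; Mmp3 was 7.04 CPM inside (1 UMI) and 1450 CPM outside.

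**Figure D5:**
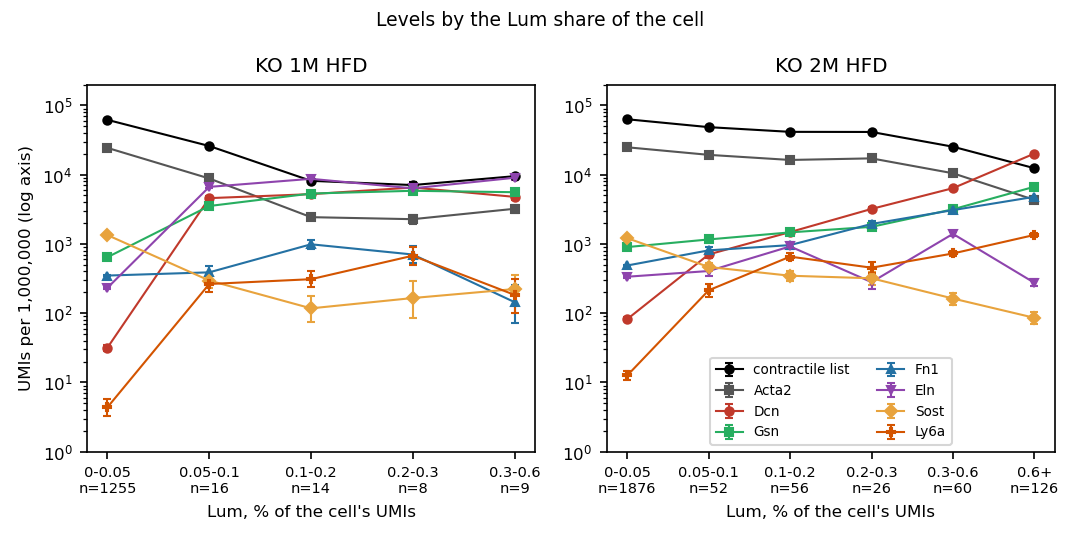
Summed level by class of Lum share in KO 1M HFD and KO 2M HFD (CPM, log axis, 95% intervals of counting error). At 2 months Dcn climbs from 82.04 to 20120 CPM over the 6 classes as the contractile sum goes down to 12380 CPM.

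The 27 Lum-high cells of KO 2M HFD with Col2a1 at or over 0.1% passed the same Lum limit. They had Dcn at 11841 CPM, against 15089 CPM in the 186 cells, and had even less Acta2, 906 against 6567 CPM. Sparc was 57842 against 5962 CPM and Ibsp 6833 against 366 CPM. The markers Ly6a, Mmp3, Vcam1 and Eln were nearly absent in the 27 cells. Ly6a was 9.77 against 1120 CPM, Mmp3 12.2 against 1346 CPM, Vcam1 34.2 against 2350 CPM and Eln 7.33 against 684.7 CPM. Ly6c1 (9.77 against 444 CPM), Cd34 (12.2 against 158 CPM) and C3 (2.44 against 100 CPM) were low there as well. Some other genes higher in the 186 cells than in Lum-low cells were not lower in the 27. Timp1 was 2952 against 2485 CPM, Prg4 508 against 440 CPM, Mmp2 361 against 354 CPM and Spp1 13026 against 6018 CPM. Bglap (osteocalcin) was 1302 against 4.09 CPM and Acan (aggrecan) 735 against 26.3 CPM. Of 4895 genes counted 361 were at least 2-fold higher in the Col2a1-high cells and 1164 lower.

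The same Lum and Col2a1 limits found 3 of 1127 cells in KO ND, 107 of 1577 in KO 4M HFD (6.79%, 5.59 to 8.14%), 9 of 2659 in Apoe 2M HFD (0.338%) and 166 of 1235 in Apoe 4M HFD (13.4%, 11.6 to 15.5%). Lum was not listed in Apoe ND and Apoe 1M HFD, so no count is given there. In KO 4M HFD 771 more cells were Lum-high with Col2a1 at or over 0.1%, 87.8% of all its Lum-high cells, and 67 cells were Lum-low, 45 of them with Col2a1 at or over 0.1%. KO and Apoe libraries come from tables scaled separately, and levels were set side by side only as shares of UMIs.

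In Apoe 4M HFD, whose cells played no part in naming the genes, 14 of the 21 genes higher in both KO libraries were at least 2-fold higher in Lum-high cells too, where 4.54% of 9169 genes were, and 108 of the 119 lower ones at least 2-fold lower, where 11.7% were. In KO 4M HFD 7 of 21 were at least 2-fold higher, where 2.92% of 6367 genes were, and 93 of 110 counted at least 2-fold lower, where 9.36% were. Against the 22 Lum-low cells there with Col2a1 under 0.1%, a comparison added after the data were seen, 14 of 21 were at least 2-fold higher, where 6.92% of 2919 genes were, and 69 of 84 counted at least 2-fold lower, where 6.41% were. The larger sets of KO 2M HFD alone carried over less, against all Lum-low cells. Of the 380 higher genes, 205 of 348 counted were at least 2-fold higher in Apoe 4M HFD and 92 of 337 in KO 4M HFD. Of these counted genes, 16 and 67 had the other sign. Of the 823 lower genes, 438 of 728 and 171 of 282 were at least 2-fold lower, and 45 and 16 had the other sign. Acta2 was 2400 CPM in Lum-high and 15320 CPM in Lum-low cells of Apoe 4M HFD, and 1278 and 11140 CPM in KO 4M HFD. Ly6a was 511.1 against 3.931 CPM in Apoe 4M HFD and 313.6 against 70.8 CPM in KO 4M HFD; Vcam1 was 1809 against 237.5 CPM and 1417 against 159.3 CPM. Summed Eln was 1429 CPM in Lum-high and 1850 CPM in Lum-low cells of Apoe 4M HFD. In the 3 KO libraries the sums went the other way, but at 2 months not with Lum at 0.5% or more (log2 ratio -0.256). In KO 4M HFD 25.23% of Lum-high cells held an Eln UMI, against 59.09% of the 22 Lum-low cells with Col2a1 under 0.1%. For Ly6a these shares were 35.51% and 36.36%, and for Vcam1 47.66% and 77.27%. The higher sums of Eln, Ly6a and Vcam1 there thus did not go with a larger share of cells holding them. Mmp3 was not listed in Apoe 4M HFD, that is, seen in under about 5% of its cells, so its level there was not measured. In KO 4M HFD Mmp3 was 861 CPM in Lum-high and 41.3 CPM in Lum-low cells. It was seen in 29.91% of Lum-high cells there, a smaller share than among the 22 Lum-low cells with Col2a1 under 0.1%.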

How the data were processed

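Expression was measured by 10x Chromium single-cell RNA sequencing of 8 libraries. UMI-tools, STAR, featureCounts and Subread 1.6.0 and build GRCm38 are named in the submitters' processing notes, with no order given. The authors deposited log2 values, trimmed-mean scaled per the file names, without Apoe and Tgfbr2, in 6 tables, of which 4 were read; 0 columns of per-cell values in those tables were left aside. UMIs were recovered as (2 to the power of the value minus 1) divided by the cell's smallest nonzero such value; 100% of nonzero entries came out whole within 0.01. Lum-high and Lum-low cells were cut as in the opening, and UMIs were summed per class and divided by the class total.

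A gene was counted where its UMIs over both classes predicted at least 10 in each at equal level; a class at 0 entered at a floor of 3 counts over the class, as a bound. Past the fold means at least 2-fold. Intervals are exact at 95%. Doublets were not called; cells with 3 or more markers of another type were left out as an alternative (57 cells, 0 of them Lum-high, in KO 1M HFD and 77, of which 4 Lum-high, in KO 2M HFD). The KO 1M HFD and KO 2M HFD libraries share 8 barcodes, 0 of them of a Lum-high cell. The ratios and their intervals were tested on simulated counts, and the recovery was checked only by whether the values came out whole.

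Genes named are the 15 with the largest smaller ratio in both libraries in each direction (0 of the 21 and 4 of the 119 were predicted, pseudo- or ribosomal genes, left out), the markers given for these cells, up to 4 per list, genes past the fold in 1 library and within 1.5-fold of equal in the other, genes past the fold in opposite directions, and markers of 12 cell types; genes of KO 2M HFD alone, the genes listed by name in the counts, Klf4, Myocd, Bgn and Fn1 were also named after their values were seen. The members and the 22 lists were chosen with earlier results of these data known. Gene symbols came from GENCODE vM21 (11439 of 11447 IDs) and promoters from RefSeq. Python 3.11.15, numpy 2.4.6, pandas 2.3.3, scipy 1.17.1 and matplotlib 3.10.9 were used. Alternatives covered the Lum limits, the comparison cells, the filter, the scaling, the depth and the fold. Values of some genes of the lists are not reported here.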

Additional observations from a re-analysis of the deposited data

Results flagged for a closer look

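Each of 5 genes was at least 2-fold lower in the Lum-high cells of KO 1M HFD and at least 2-fold higher in those of KO 2M HFD, against the Lum-low cells of the same library. The difference between the libraries was not tested, each has 1 library per diet, and the 1-month values rest on few UMIs. The log2 ratio of Fn1 (fibronectin) was -1.27 at 1 month, on 11 UMIs, and 3.09 at 2 months. That of Lgals3, the gene of galectin-3, a lectin that phagocytes and modulated cells make, was -2.50 on 3 UMIs and 2.27. Serpine2, a serine protease inhibitor, had -1.30 on 22 UMIs and 1.76. Cxcl12, a chemokine, had -1.65 on 4 UMIs and 1.19. The water channel gene Aqp1 had -1.92 on 4 UMIs and 1.17. Such genes were 0.409% of the 1222 counted in both libraries, and the 9 cells of KO 1M HFD carried fibroblast markers, whose part in these ratios was not tested.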

How the results depend on the processing

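Where an alternative gave a value, 2 of the 205 named values past 2-fold (of 362) changed sign. These were Fn1 in KO 1M HFD (0.255 with Lum at least 0.2%) and Eln in KO 2M HFD (-0.256 with Lum at least 0.5%). The 15 alternatives did not each give every value. They were run on KO 1M HFD and KO 2M HFD, and any value of another library met only the added comparison cells with Col2a1 under 0.1%. With Lum at least 0.5% no gene could be counted in KO 1M HFD. The 1.5-fold setting changed gene tallies alone, and genes short of a setting's filter gave no value there. The contractile list stayed below 0 in both libraries under each alternative that gave a value (at 2 months -1.59 with Lum at least 0.2% and -2.06 with at least 0.5%; at 1 month -3.09 without the 5% of cells with most UMIs). The modulated smooth muscle median of KO 1M HFD turned to 0.639 (Lum at least 0.2%), 1.26 (20 predicted UMIs), 2.76 (no filter), 2.26 (thinned to a common depth) and 0.182 (without the 5% of cells with most UMIs). The matricellular median there turned to 0.125 (Lum at least 0.2%) and 1.93 (no filter), and the complement median to -1.15 (Lum at least 0.2%). With no filter the 1-month medians of the proteoglycan, Sca1 and cytokine lists were 2.91, 1.64 and 1.24. The oxidative phosphorylation median at 2 months was -0.199 with the median log2 ratio set to 0 and -0.209 with trimmed-mean factors. Elsewhere the cause was not tested, beyond the fewer or added cells and genes that each alternative has by construction.

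Genes past 2-fold in both libraries numbered 40 higher with Lum at least 0.2%, 0 and 0 with at least 0.5% (KO 1M HFD then had 0 members, against 17 at 0.2%), 79 lower at 20 predicted UMIs, 195 and 229 with no filter, 12 and 53 thinned, 32 higher with the median set to 0, and 66 and 207 at 1.5-fold. In KO 2M HFD alone they numbered 250 higher when thinned, and 914 and 1928 at 1.5-fold. Of the 21 genes, 14 and not 7 were past 2-fold higher in KO 4M HFD against comparison cells with Col2a1 under 0.1%. Setting the median to 0 shifts log2 ratios by 0.307 at 1 month and 0.133 at 2 months. No paired analysis was possible because each genotype and diet has 1 library. The depth of 76268 UMIs in the 9 cells of KO 1M HFD limits its counted genes to 1226.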
